A study of Danio rerio with 10 samples.

Results

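Expression of 9 genes of the BMP pathway was followed in single cells of early zebrafish embryos. They were picked by name from the 20920 genes of the deposited table, and all 9 were found. They are the ligands bmp2b, bmp4, bmp7a and admp, the ligand-binding antagonists chrd (chordin) and nog1 (noggin), the secreted protein szl (sizzled), the membrane protein bambia and the intracellular transducer smad5. BMP ligands are secreted dimers that bind type I and type II receptors, which phosphorylate Smad1, Smad5 and Smad9. In the fish gastrula, BMP signalling is high ventrally and specifies ventral fates, while the dorsal organizer, the source of notochord and prechordal plate, secretes Chordin and Noggin, which hold ligands away from their receptors.

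As 1-cell eggs, wild-type embryos received 20 mM 4sUTP by injection, a uridine analogue built into RNA made after injection, and with unlabelled GFP and mCherry mRNAs and a labelled RFP mRNA. Labelled copies were therefore made after injection, while copies estimated as unlabelled can be maternal or new ones with no conversion read. Cells were collected at dome, 30% epiboly and 50% epiboly, captured by Drop-seq and treated with 10 mM iodoacetamide (IAA), so that labelled positions read as T-to-C changes. There were 5 IAA libraries, namely 1 at dome (replicate B) and a pair (A, B) at each epiboly stage, each made from many pooled embryos; the unconverted libraries were not analysed here.

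The libraries held between 251 and 3068 cells and between 557065 and 8780804 UMIs (counted mRNA molecules), with 50% epiboly replicate B the smallest. All levels are CPM, a gene's UMIs per 1000000 gene UMIs of the library or cell type. Dome had 1 library and no spread of its own. According to the methods, the first replicate of the epiboly stages was dissected by hand, while the second replicate and dome were shaken off the yolk. The methods do not use the letters. If A is the first replicate and B the second, the letter also marks handling in the epiboly stages. The methods place dome in the first replicate and its cells carry the letter A in their names, but its label says replicate B. The label was followed. Of 24 fixed marker genes, 16 were highest in the deposited cell type they mark. The exceptions included all 3 markers of Non Neural Ectoderm (foxi1, tp63 and gata2a) and sox3 for Neural Ectoderm. They also included tbxta for Notochord (1124 CPM) and tbx16 for Ventral Margin (1802 CPM), both higher in Muscle Blood (2471 and 2377 CPM). The other markers of Notochord and Ventral Margin, noto and eve1, were highest in their types. The type names are therefore used here as the names of the clusters. 1 cell barcode was shared, between dome and 50% epiboly replicate A.

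In every library where the fraction could be read, 8 of the 9 genes were mostly labelled, and smad5 alone among them was mostly unlabelled at dome. In the plot of labelled and unlabelled levels, bars of the ligands and antagonists are mainly labelled in each library, while the smad5 bar changes from mainly unlabelled to about equal parts.

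**Figure D1:**
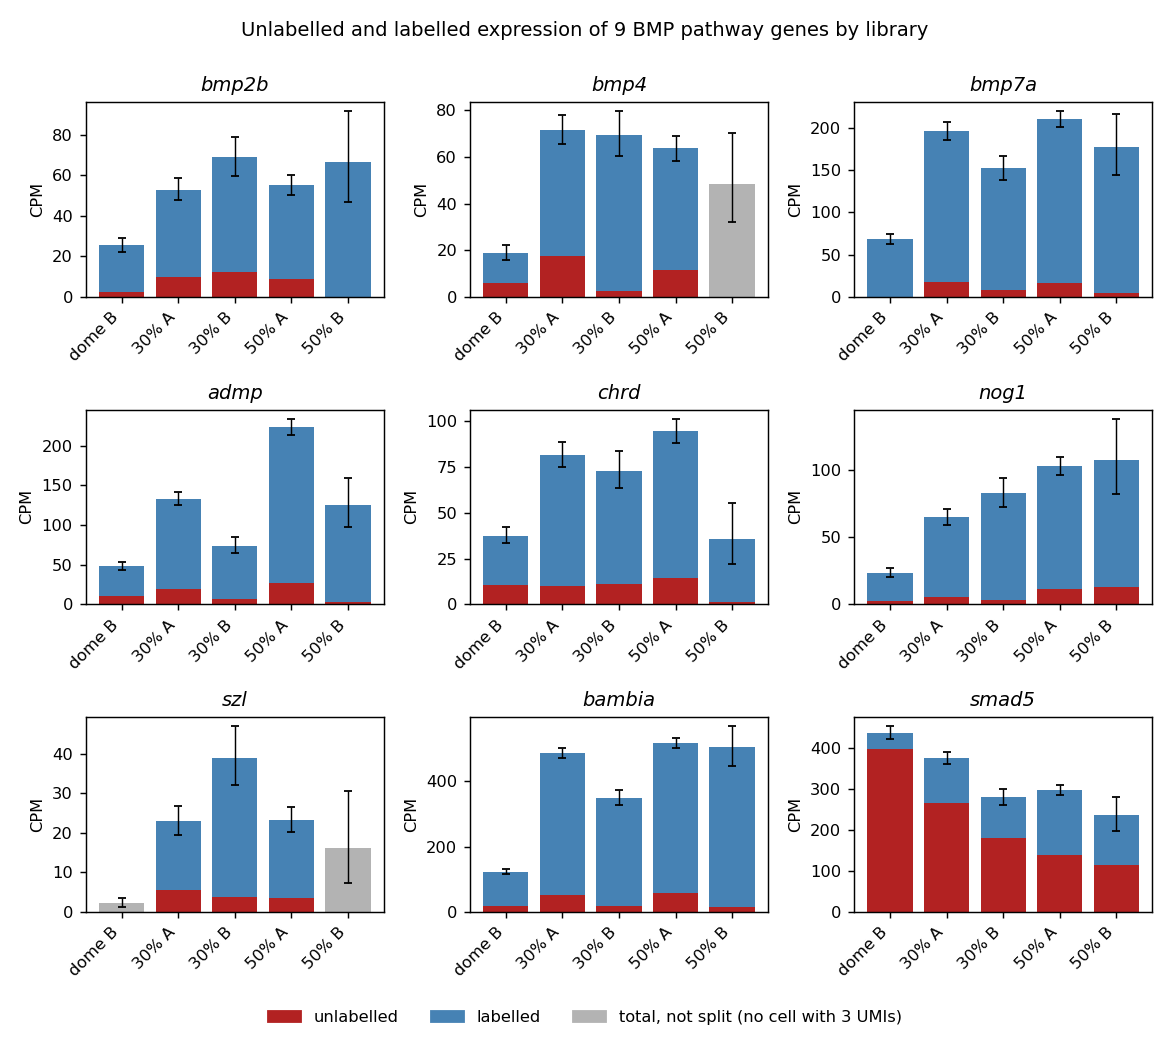
CPM of each gene in each library (x axis; A and B are replicates), split into unlabelled (red) and labelled (blue) parts by the labelled fraction of cells with 3 or more UMIs of the gene; grey bars could not be split, and error bars are 95% exact binomial intervals of the total, counting error only. The total of smad5 was 437 CPM at dome and, at 50% epiboly, 297 and 235 CPM, and its red part went from 396 to 139 and 115 CPM.

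The ligands bmp2b, bmp4 and bmp7a form the ventral signal of the fish embryo, in which Bmp2b and Bmp7a act as a heterodimer. The level of bmp2b was 25.3 CPM at dome, 52.9 (A) and 68.8 (B) CPM in 30% epiboly, and 55.1 (A) and 66.4 (B) CPM in 50% epiboly, the order used below. The level of bmp4 was 19.0 CPM at dome, 71.6 and 69.5 CPM in 30% epiboly, and 63.7 and 48.5 CPM in 50% epiboly. The level of bmp7a was 68.1 CPM at dome, 196 and 153 CPM in 30% epiboly, and 210 and 178 CPM in 50% epiboly. For all 3 ligands the dome library was the lowest. The epiboly stages overlapped for bmp2b and bmp7a, while both 50% epiboly values of bmp4 lay below both at 30%. The bmp4 value of 50% epiboly replicate B rests on 27 UMIs. Its exact binomial interval, 31.9 to 70.5 CPM (counting error only), includes the 69.5 CPM of 30% epiboly replicate B. In the edgeR fit described below, bmp4 changed by -0.07 ± 0.38 (SE) on the log2 scale between these stages, so no drop was resolved.

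The ligand admp, which is made dorsally in fish although it is a BMP, had 48.0 CPM at dome, then 133 and 73.9 CPM (30% epiboly) and 224 and 126 CPM (50% epiboly). Replicate A was the higher at both epiboly stages. The antagonist chrd had 37.5 CPM at dome, then 81.7 and 72.9 CPM (30% epiboly) and 94.5 and 35.9 CPM (50% epiboly). Its lowest value, in 50% epiboly replicate B, rests on 20 UMIs. The antagonist nog1 had 23.4 CPM at dome, then 65.2 and 83.2 CPM (30% epiboly) and 103 and 108 CPM (50% epiboly), with no overlap between the 3 stages.

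Of the feedback genes, szl encodes a Frizzled-related inhibitor of the proteases that cleave Chordin, and bambia encodes a receptor-like protein without a kinase domain that dampens signalling. The level of szl was 2.29 CPM at dome (17 UMIs), 22.9 and 39.0 CPM in 30% epiboly, and 23.2 and 16.2 CPM in 50% epiboly. The level of bambia was 123 CPM at dome, 486 and 349 CPM in 30% epiboly, and 517 and 504 CPM in 50% epiboly. Both were lowest at dome. The transducer smad5 ran the other way, with 437 CPM at dome, 376 and 280 CPM in 30% epiboly, and 297 and 235 CPM in 50% epiboly, and with dome the highest library.

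Total counts were compared between stages with edgeR's quasi-likelihood test over all 5 libraries. Between dome and 50% epiboly, 7 of the 9 genes rose, against 5.69% of the 12150 genes tested that were called higher. The largest of these log2 changes was that of szl, 3.63 ± 0.69 (SE; edgeR adjusted p = 0.00808). It was followed by nog1 at 2.61 ± 0.50 (adjusted p = 0.0084), bambia at 2.49 ± 0.44 (adjusted p = 0.00658) and admp at 2.35 ± 0.54 (adjusted p = 0.0174). The ligands bmp4, bmp7a and bmp2b changed by 2.05 ± 0.51, 1.97 ± 0.45 and 1.69 ± 0.50 (adjusted p = 0.0236, 0.0173 and 0.0458). The 2 genes not called were chrd at 1.35 ± 0.55 (adjusted p = 0.126) and smad5 at -0.26 ± 0.40 (adjusted p = 0.702).

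Single libraries decided 2 of these outcomes. Without 50% epiboly replicate B, 8 of the 9 were called, chrd among them (edgeR adjusted p = 0.000776), where 14.2% of all genes were called higher. The call of bmp2b was lost without either 30% epiboly library (adjusted p = 0.0953 without replicate A and 0.0952 without replicate B) and without TMM scaling (0.0778). TMM scaling sets the libraries on a common scale, and without it the median change of all genes between dome and 50% epiboly moved from -0.09 to -0.56, and the genes called from 691 higher and 275 lower to 605 higher and 1531 lower. A sum over a library cannot tell more cells that express a gene from more mRNA per cell.

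Between dome and 30% epiboly, szl rose, by 3.96 ± 0.68 on the log2 scale (edgeR adjusted p = 0.0169), and 1 of 9 genes was called beside 0.321% of all genes. Next came bambia at 1.99 ± 0.43 and bmp4 at 2.12 ± 0.50, with adjusted p = 0.0589 and 0.0806. This count depended on the fit. In fits with the replicate letter as a block, dome was entered as B, as labelled, so their comparisons with dome depend on that label. With the replicate letter as a block 4 of the 9 were called (szl, bambia, nog1 and bmp4), beside 1.57% of all genes, and with DESeq2 5, beside 1.47%. Without 50% epiboly replicate A or replicate B it was 8 each, beside 5.83% and 6.77% of all genes. Between 30% and 50% epiboly, none of the 9 was called, nor was any other gene (0%, 0 of 12150 by edgeR, with 701 at an unadjusted p under 0.05, and 0 by DESeq2, with 362). The largest log2 changes of that step among the 9 were 1.01 ± 0.40 for admp and 0.72 ± 0.36 for nog1. Whether admp passed depended on 50% epiboly replicate B, without which that stage had a single library. The 3 stage comparisons share libraries.

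**Figure D2:**
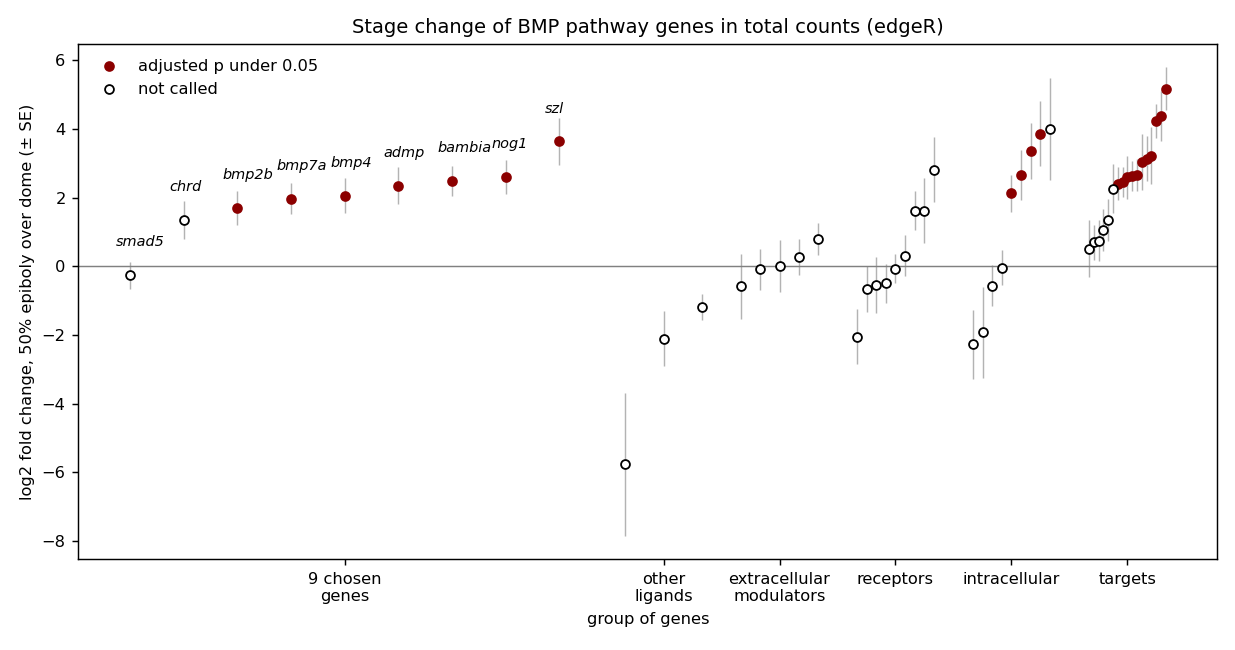
Log2 fold change of total counts between dome and 50% epiboly (y axis; points with SE from edgeR) for the 9 genes and the other genes of the pathway that were tested, by role (x axis); filled points had an adjusted p under 0.05. Of the 9 genes 7 are filled, smad5 and chrd are open, and filled points among the others are 11 of 17 targets and 4 of 9 intracellular genes. Of all genes tested, 5.69% were called higher.

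The other pathway genes were counted from a list of 70, of which 59 were in the table and 43 passed the filter on low counts. Between dome and 50% epiboly, 15 of the 43 rose and none fell, beside 5.69% of all genes higher and 275 of 12150 lower. The median log2 change of the 43 was 1.05, against -0.09 over all genes. None of the 3 other ligands, 5 extracellular modulators and 9 receptors tested was called. Among the ligands and receptors with 20 CPM or more in some library, gdf3, a maternally supplied Nodal co-ligand, had 386 CPM at dome and, at 50% epiboly, 114 and 136 CPM (edgeR adjusted p = 0.0602). The type I receptor genes acvr1l and bmpr1aa changed by -0.07 ± 0.41 and 1.61 ± 0.57 (adjusted p = 0.932 and 0.08). The secreted modulators sfrp1a and fstl1b changed by 0.79 ± 0.46 and 0.27 ± 0.52, with adjusted p of 0.28 and 0.764.

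Among intracellular genes, the 2 other BMP transducers smad1 and smad9 rose by 3.86 ± 0.94 and 2.66 ± 0.72 on the log2 scale (edgeR adjusted p = 0.0225 and 0.0343), unlike smad5, although both stayed low, with at most 8.56 and 9.22 CPM in a library. The inhibitory Smads smad6a and smad7 rose by 3.37 ± 0.81 and 2.12 ± 0.54 (adjusted p = 0.0214 and 0.0262), and the ubiquitin ligase gene smurf2 was not called (-0.04 ± 0.52).

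Of 17 target genes tested, 11 rose between dome and 50% epiboly, beside 5.69% of all genes. At 30% epiboly 5 already did, beside 0.321% of all genes. The ventral repressors vox, vent and ved rose by 2.59 ± 0.62, 2.40 ± 0.48 and 2.62 ± 0.44 on the log2 scale (edgeR adjusted p = 0.0208, 0.00963 and 0.0048). The general BMP targets id1 and id3 rose by 2.45 ± 0.44 and 2.66 ± 0.48 (adjusted p = 0.00681 and 0.00697). The ventrolateral and posterior genes eve1, cdx4 and msx1b had the largest changes, 4.23 ± 0.49, 5.17 ± 0.62 and 4.39 ± 0.73 (adjusted p = 0.000494, 0.000494 and 0.00469). The others called were gata2a, tfap2c and msx3, and those not called were foxi1 (adjusted p = 0.0598), klf2b, gata3, tfap2a, id2a and tp63. The level of tfap2c was 3.90 CPM at dome, and 33.7 (A) and 3.59 (B) CPM in 50% epiboly, so its replicates disagreed. The 5 called at 30% epiboly were cdx4, eve1, id1, msx1b and vent.

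The labelled fraction is the estimated share of a gene's UMIs that carry label. It was summed over cells with 3 or more UMIs of the gene, since a single UMI often carries no conversion. For bambia, the mean estimate was 65.0% in cells with 1 UMI and 88.5% in cells with 3 or more. The injected unlabelled RNAs measured the background, 0.57% to 0.922% across libraries.

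Among the ligands, bmp7a was labelled at 99.8% at dome, 91.2% and 94.9% in 30% epiboly, and 92.4% and 97.2% in 50% epiboly. For bmp2b the fraction was 91.1% at dome (9 UMIs), 81.8% and 82.2% in 30% epiboly, and 84.4% and 100.0% (6 UMIs) in 50% epiboly. For bmp4 it was 70.0% at dome (10 UMIs), 75.5% and 96.5% in 30% epiboly, and 81.7% in 50% epiboly replicate A, with no cell of 3 or more UMIs in replicate B. Every one of these values lay above the background of the injected RNAs. Over cells with 1 or more UMIs the fractions across libraries were 63.0% to 85.0% for bmp2b and 58.4% (27 UMIs) to 80.3% for bmp4.

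On the dorsal side, admp was labelled at 77.2% at dome, 85.6% and 90.3% in 30% epiboly, and 88.0% and 98.1% in 50% epiboly. For chrd the fraction was 71.7% at dome, 87.8% and 84.8% in 30% epiboly, and 85.0% and 96.6% (9 UMIs) in 50% epiboly. For nog1 it was 88.9% at dome, 91.9% and 95.7% in 30% epiboly, and 88.6% and 87.9% in 50% epiboly. Dome was the lowest library for admp and chrd but not for nog1. The fraction of bambia was 84.7% at dome, 89.2% and 94.3% in 30% epiboly, and 88.7% and 97.2% in 50% epiboly, and szl had 75.5%, 90.0% and 84.8% in the 3 libraries where it could be read.

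For smad5 the labelled fraction was 9.30% at dome (95% Wilson interval 8.11% to 10.6%, counting error only), 29.3% and 35.7% in 30% epiboly, and 53.1% and 51.0% in 50% epiboly, the last from 24 UMIs (31.4% to 68.6%). The 3 stages did not overlap. From 30% to 50% epiboly the fraction went up by 23.8 percentage points within replicate A and by 15.3 within replicate B, a mean of 19.6, with p = 0.33 in a two-sided exact permutation test, the smallest that 2 libraries against 2 allow. The fraction of all genes together was 13.6% at dome, 38.2% and 32.1% in 30% epiboly, and 51.2% and 34.9% in 50% epiboly. The smad5 fraction lay below it at dome, and in 30% epiboly below it in replicate A and above it in replicate B. In 50% epiboly it lay above in both replicates, but the all-gene values fell within its Wilson intervals (50.0% to 56.2% in replicate A).

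Labelled and unlabelled expression, each the product of the CPM and its fraction, was tested between stages on log2(CPM + 1) with limma, among 791 genes with 30 or more UMIs behind the fraction in every library. Of the 9 genes, 3 passed this filter, and the labelled expression of all 3 rose between dome and 50% epiboly, in a comparison where 46% of genes did. The log2 changes were 2.17 ± 0.47 for bambia, 2.11 ± 0.53 for nog1 and 2.04 ± 0.59 for admp (limma adjusted p = 0.0203, 0.0249 and 0.0329). All 3 calls were lost when no minimum was set behind the fraction (limma adjusted p from 0.0646 to 0.103), where none of the 2050 genes tested was called. The 3 calls were also lost when any of 3 epiboly libraries was left out, and that of admp without 50% epiboly replicate A. Each of these fits left an epiboly stage with 1 library. In those that lost all 3 calls, the calls of all other genes were lost too, so the loss was not particular to these 3 genes. Their unlabelled expression was not called (adjusted p = 0.886, 0.668 and 0.97), where 0.632% of genes were.

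The gene smad5 did not pass this filter, having 24 UMIs behind its fraction in 50% epiboly replicate B, and was tested with the fraction taken over cells with 1 or more UMIs, which 2450 genes passed. Its unlabelled level was then 391 CPM at dome, 259 and 176 CPM in 30% epiboly, and 149 and 109 CPM in 50% epiboly. Its labelled level was 46.0 CPM at dome, 117 and 104 CPM in 30% epiboly, and 148 and 126 CPM in 50% epiboly. The 3 stages did not overlap in either component, and the components moved in opposite directions.

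Between dome and 50% epiboly, unlabelled smad5 fell by 1.61 ± 0.40 on the log2 scale (limma adjusted p = 0.0311), where 6.78% of genes were called lower. Its labelled expression rose by 1.55 ± 0.47 (adjusted p = 0.0362), where 35.1% were called higher. The median change of all genes in this fit was -0.43 for unlabelled and 1.39 for labelled expression. Components were not TMM-scaled, unlike the total counts, so their changes are not on the scale of the edgeR changes. With the replicate block as well, an alternative chosen after seeing the data, both smad5 changes were called (limma adjusted p = 0.00153 and 0.0237). There 14% of genes were called lower and 47.9% higher, and dome was entered as replicate B. In that fit unlabelled nog1 was also called, as higher, by 1.36 ± 0.50 (adjusted p = 0.0423), where 1.96% were, and without the block it was not (adjusted p = 0.217). With cells of 3 or more UMIs and no minimum, neither component of smad5 was called (limma adjusted p = 0.192 and 0.066), where none of the 2050 genes tested was. Neither was called without 50% epiboly replicate B, which left that stage with 1 library. There the calls of all other genes were lost too. In the fit over cells with 1 or more UMIs and no block, 5 of 6 genes tested rose in labelled expression, beside 35.1% of genes. The exception was bmp2b (1.32 ± 0.55, limma adjusted p = 0.0889). With the block all 6 rose, beside 47.9%. Over cells with 1 or more UMIs, the unlabelled levels of bambia and admp were also larger in both 50% epiboly libraries than at dome. They were 92.2 and 39.1 against 29.1 CPM and 46.5 and 20.1 against 13.2 CPM, changes that were not called (limma adjusted p = 0.316 for both). Over cells with 3 or more UMIs they were 58.3 and 14.0 against 18.85 CPM for bambia, and 26.9 and 2.39 against 10.9 CPM for admp. There 50% epiboly replicate B lay below dome for both genes.

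Across cell types, chrd, nog1 and admp formed a dorsal set. The genes bmp2b, bmp4, bmp7a, szl and bambia were higher in Ventral Margin than in Notochord in every library. Of these only bmp4 had its highest mean in Ventral Margin. The gene smad5 was broadly distributed. Cell types are the authors' clusters of these same cells, and chrd was one of the genes used to name them, so the levels are a description and no test was made between types. Means are over libraries with 20 or more cells of a type. Their SD therefore includes differences between stages, and the types do not all cover the same libraries.

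**Figure D3:**
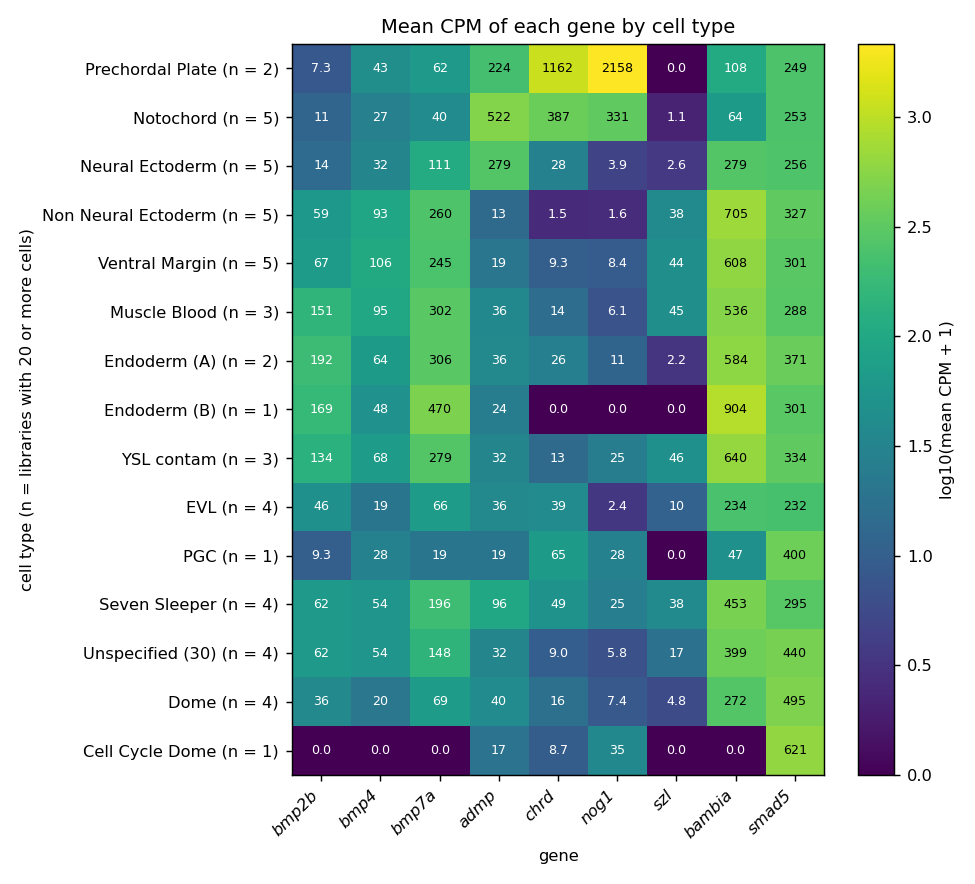
Mean CPM of each gene (x axis) in each deposited cell type (y axis, with n the number of libraries with 20 or more cells), coloured on a log10(CPM + 1) scale with the CPM written in each cell. nog1 and chrd peak in Prechordal Plate at 2158 and 1162 CPM, admp in Notochord at 522 CPM, and smad5 lies between 232 and 621 CPM in all 15 types.

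The antagonist nog1 was at 2158 ± 85.9 CPM in Prechordal Plate (SD, n = 2), at 331 ± 146 CPM in Notochord (n = 5), and at 35.0 CPM or less in each other type. The Prechordal Plate and Notochord clusters held 9.63% of cells and 90.3% of nog1 UMIs pooled over libraries. The 95% Wilson interval of this pooled share, 88.9% to 91.6%, covers counting error only and not the spread between libraries. By library, the nog1 share was lowest at dome (95% Wilson interval 61.7% to 75.4%) and highest in 50% epiboly replicate B (98.3%). For chrd the levels were 1162 ± 60.2 CPM in Prechordal Plate and 387 ± 180 CPM in Notochord. Both clusters together held 74.7% of its pooled UMIs, and by library from 59.5% at dome to 80.4% in 30% epiboly replicate A. Both differences between these 2 types exceeded the larger SD.

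The order of these types was reversed for admp, at 522 ± 356 CPM in Notochord (n = 5), 279 ± 75.0 CPM in Neural Ectoderm (n = 5) and 224 ± 128 CPM in Prechordal Plate (n = 2). Neighbouring means did not differ beyond the SD over libraries. Within libraries, Notochord was below Neural Ectoderm at dome (141 and 231 CPM) and above it in each epiboly library. Neural Ectoderm alone held 41.3% of admp UMIs but 6.64% of chrd UMIs and 0.871% of nog1 UMIs, with 21% of cells. Among these dorsal genes, admp was therefore the only one with a sizeable level in the Neural Ectoderm cluster. Within libraries with 20 or more cells of both types, admp was 587 CPM in Notochord and 134 CPM in Prechordal Plate of 30% epiboly replicate A, and 1090 and 315 CPM in 50% epiboly replicate A. For nog1 the same libraries gave 309 and 2097 CPM, and 394 and 2219 CPM.

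Levels of bmp4 led in Ventral Margin at 106 ± 51.9 CPM (SD, n = 5), Muscle Blood at 95.3 ± 22.9 CPM (n = 3) and Non Neural Ectoderm at 93.3 ± 18.5 CPM (n = 5). Their means did not differ beyond the SD over libraries. Within the libraries they shared, Ventral Margin was above Muscle Blood each time (145 and 118, 142 and 96.4, 142.5 and 71.9 CPM). Against Non Neural Ectoderm it was lower at dome (35.4 and 93.4 CPM) and in 50% epiboly replicate B (66.1 and 98.3 CPM), and higher in the other libraries. For bmp2b the leading types were Endoderm (A) at 192 ± 26.9 CPM (n = 2), Endoderm (B) at 169 CPM (1 library, 14 UMIs) and Muscle Blood at 151 ± 26.5 CPM (n = 3), and Ventral Margin had 66.7 CPM. For bmp7a they were Endoderm (B) at 470 CPM (39 UMIs), Endoderm (A) at 306 ± 33 CPM and Muscle Blood at 302 ± 88.0 CPM, with Non Neural Ectoderm and Ventral Margin at 260 and 245 CPM.

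The pseudoreceptor bambia was at 904 CPM in Endoderm (B) (75 UMIs, 1 library), 705 ± 225 CPM in Non Neural Ectoderm, 640 ± 499 CPM in YSL contam (n = 3) and 608 ± 211 CPM in Ventral Margin (SD, n = 5), against 64 CPM in Notochord. The feedback gene szl was at 45.5 ± 55.3 CPM in YSL contam and 44.9 ± 31.8 CPM in Muscle Blood (n = 3 each), 44.5 ± 30.1 CPM in Ventral Margin, 38.2 ± 25.7 CPM (n = 4) in the type marked by isg15 and sesn3, and 38.0 ± 19.0 CPM in Non Neural Ectoderm, against 2.57 CPM in Neural Ectoderm and 1.07 CPM in Notochord, and neighbours among the first 5 did not differ beyond their SD. In Prechordal Plate of the 2 libraries with 20 or more cells no szl UMI was counted, which allows up to 7.86 CPM (3 counts over both, counting error only). In 50% epiboly replicate A, Non Neural Ectoderm and Ventral Margin had 29.8% of cells and held 55.9% of szl UMIs, 55.3% of bmp4, 49.4% of bambia, 42.1% of bmp7a, 37% of smad5 and 32.9% of bmp2b. At dome these types had 5.23% of cells and held 35.3% (of 17 UMIs), 14.9%, 14.5%, 9.88%, 3.05% and 9.04% of the same genes, so the place of smad5 against bmp2b differed between libraries. For smad5 the highest levels were in the undifferentiated clusters. They were 621 CPM in Cell Cycle Dome (1 library, 30 cells), 495 ± 26.3 CPM in Dome (n = 4) and 440 ± 111 CPM in Unspecified (30) (n = 4).

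Ratios between neighbouring types within each library were read by a rule of 2-fold or more in every library with 20 or more cells of both, among genes with a mean of 10 CPM or more. Between the 2 ectodermal clusters, bmp2b and szl were higher in Non Neural Ectoderm in all 5 libraries, 2 of 8 of the genes tested against 0.0532% of 5639 genes, or 3 genes, the third being the ventral repressor gene ved. In the opposite direction chrd and admp were higher in Neural Ectoderm, 2 of 8 against 0.124%, or 7 genes, of which the others were foxd3, noto, foxb1a, midn and pkdccb.

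At dome, admp had 7.19 CPM in Non Neural Ectoderm and 231 CPM in Neural Ectoderm. At 30% epiboly the same types had 12.2 and 312 CPM (A), and 16 and 254 CPM (B). At 50% epiboly they had 30.1 and 394 CPM (A), and no UMI and 206 CPM (B). The ratio was 13.1 to 32.1 in the 4 libraries where it could be formed, the highest, at dome, with 1 UMI in Non Neural Ectoderm and the next, 25.5, with 8. For chrd, Non Neural Ectoderm held 0, 1.53, 1.60, 4.20 and 0 CPM in library order, and Neural Ectoderm 39.6, 32.7, 24.8, 30.7 and 11.8 CPM, the last from 2 UMIs. The bmp2b and szl levels in Neural Ectoderm were as thin, with 0 UMIs of either at dome. For bmp4 and bambia the ratio reached 2 in 4 of 5 libraries and was 1.47 and 1.94 in 30% epiboly replicate B. For bmp7a it was 1.93 in 50% epiboly replicate B and 2.07 or more in the other libraries. Thus bmp4 and bambia missed the rule only through 30% epiboly replicate B, and bmp7a only through 50% epiboly replicate B.

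By the 2-fold rule, 4 of the 9 genes (bmp2b, bmp7a, szl and bambia) were higher in Ventral Margin than in Notochord, against 0.449% of 6007 genes. In the opposite direction 3 (chrd, nog1 and admp) were higher in Notochord, against 0.233%, each in all 5 libraries. The bambia level was 270 CPM in Ventral Margin and 34.1 CPM in Notochord at dome, 698 and 83.1 CPM, and 559 and 41.4 CPM in 30% epiboly, and 824 and 80.8 CPM, and 690 and 78.7 CPM in 50% epiboly. Its ratio stayed between 7.91 and 13.5. That of bmp4 was 1.56 at dome and 3.44 to 4.81 in the 3 other libraries where it could be formed. Between Notochord and Prechordal Plate, in 2 libraries, admp alone of 7 genes was higher in Notochord, against 3.64% of 5821 genes, and nog1 alone was higher in Prechordal Plate, against 3.02%. The ratio of chrd in the latter direction was 2.61 in 30% epiboly replicate A and 1.89 in 50% epiboly replicate A, so its place under the rule depended on the latter library.

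**Figure D4:**
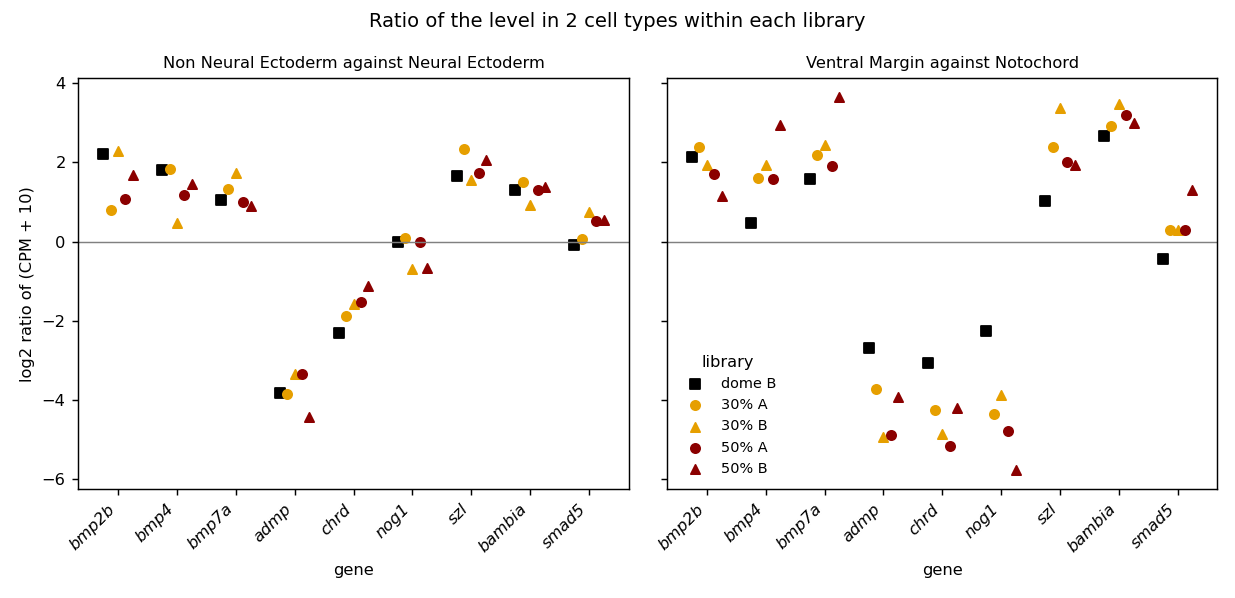
Log2 ratio of (CPM + 10) between 2 cell types within each library (points; colour is stage and shape is replicate) for each gene (x axis), Non Neural Ectoderm against Neural Ectoderm on the left and Ventral Margin against Notochord on the right. Points of bmp2b, bmp4, bmp7a, szl and bambia are above 0 in all 5 libraries on both sides, those of admp and chrd are below, and smad5 lies on both sides of 0.

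Likeness was measured by Pearson's r of log2(CPM + 10) over 49 sums of a cell type in a library, among the 4833 genes with 500 or more UMIs, and the 9 genes themselves were left out of each other's rankings. The sums share libraries and clusters, and r is a description. The paper's clusters were made from the expression of these cells, and gsc, noto, eve1 and chrd were among the genes that named them. Likeness to these genes is therefore not independent of the clusters. Of the other genes, those most like nog1 were gsc (r = 0.919), fzd8b (0.843) and foxa3 (0.789), and those most like chrd were gsc (0.866), fzd8a (0.777) and fzd8b (0.764). For admp they were foxd3 (0.774), noto (0.642) and sat1a.2 (0.608). In fish, gsc is a gene of the organizer and noto a gene of the notochord.

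For bmp7a and bmp2b the most alike of the other genes were the same ones, eve1 (0.865 and 0.799), vent (0.844 and 0.847) and ved (0.812 and 0.807), and bambia had them too, at 0.852, 0.844 and 0.897. For bmp4 they were eve1 (0.763), apoc1 (0.76) and smad7 (0.74), and for szl dlc (0.709), ved (0.701) and eve1 (0.698). For smad5 they were tipin, marveld2a and hpf1 (0.818, 0.808 and 0.806). Among the 9, bmp7a and bambia were the most alike pair (0.918), followed by chrd and nog1 (0.869), bmp4 and bmp7a (0.785), bambia and bmp2b (0.751) and admp and chrd (0.746). For bmp7a, bambia, chrd and bmp4 the most alike gene of all was thus another of the 9, and bambia and nog1 ran against each other (-0.526), while smad5 had r between -0.411 and 0.0773 with the others.

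Total counts in 30% and 50% epiboly were compared with edgeR within 4 of 5 ectodermal, marginal and axial types. The fifth, Prechordal Plate, had 5 cells in 50% epiboly replicate B and was not fitted, and Dome, Muscle Blood and the type marked by isg15 and sesn3, which had 10 or more cells in each epiboly library, were not in the comparison. No gene was called in Neural Ectoderm, Non Neural Ectoderm, Notochord or Ventral Margin (0% of 5070, 4868, 4012 and 5071 genes; DESeq2 called 0 in each), with 186, 56, 164 and 183 genes at an unadjusted p under 0.05. Of the 9 genes, 7 were tested in each type and none had an unadjusted p under 0.05. Without 50% epiboly replicate A, 61, 27, 27 and 41 genes were called in these types, and none of the 9 was among them. The nog1 change in Notochord was 0.75 ± 0.36 on the log2 scale, and the level was 309 and 272 CPM in 30% epiboly and 394 and 535 CPM in 50% epiboly. The admp level in Notochord was 587 and 367 CPM in 30% epiboly and 1090 and 425 CPM in 50% epiboly. Whether admp passed there depended on 50% epiboly replicate B, without which that stage had a single library.

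The labelled fraction was also compared between the type in which a gene was highest and all other cells of the same library, by flipping signs in an exact two-sided test across libraries with 30 or more UMIs on both sides. For nog1 it was 93.0%, 98.1% and 90.4% in Prechordal Plate in 30% epiboly A, 30% epiboly B and 50% epiboly A, and 90.9%, 87.8% and 82.4% in other cells. The difference was 6.82 ± 4.25 percentage points (SD, n = 3), above 0 in 3 of 3 libraries, with an exact p = 0.25, the smallest 3 libraries allow. For admp in Notochord it was 4.28 ± 3.30 points (n = 4), above 0 in 3 of 4 libraries (exact p = 0.25). For chrd in Prechordal Plate it was -2.84 ± 7.72 points (n = 3), above 0 in 1 of 3 (exact p = 0.75). Only these 3 genes had more than 1 such library, and these tests could not have passed 0.05. Over cells with 1 or more UMIs the differences of nog1, admp and chrd were 16.4, 8.57 and 7.67 points. The estimate rose with the UMIs in a cell, for nog1 from 50.35% at 1 UMI to 87.0% at 3 or more. Whether UMIs per cell account for the differences between types was not tested.

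The labelled fraction of smad5, here over cells with 1 or more UMIs, differed between types at the same stage. At dome it was 6.35% in Notochord, 24% in Ventral Margin, 33% in Neural Ectoderm and 31.9% in Non Neural Ectoderm. In 30% epiboly replicate A the same types had 27.1%, 42.2%, 47.1% and 49.2%, and in replicate B 24.5%, 45.7%, 47.6% and 42.8%. In 50% epiboly replicate A they had 45.9%, 53.8%, 47.1% and 52.8%. Notochord was thus the lowest of the 4 types in all 4 libraries in which it could be read. Its unlabelled smad5 was 334, 215, 206 and 132 CPM in these libraries, against 203, 163, 95.8 and 136 CPM in Neural Ectoderm, so Notochord was the higher in 3 of 4. The labelled fraction of all genes was not compared between these types.

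**Figure D5:**
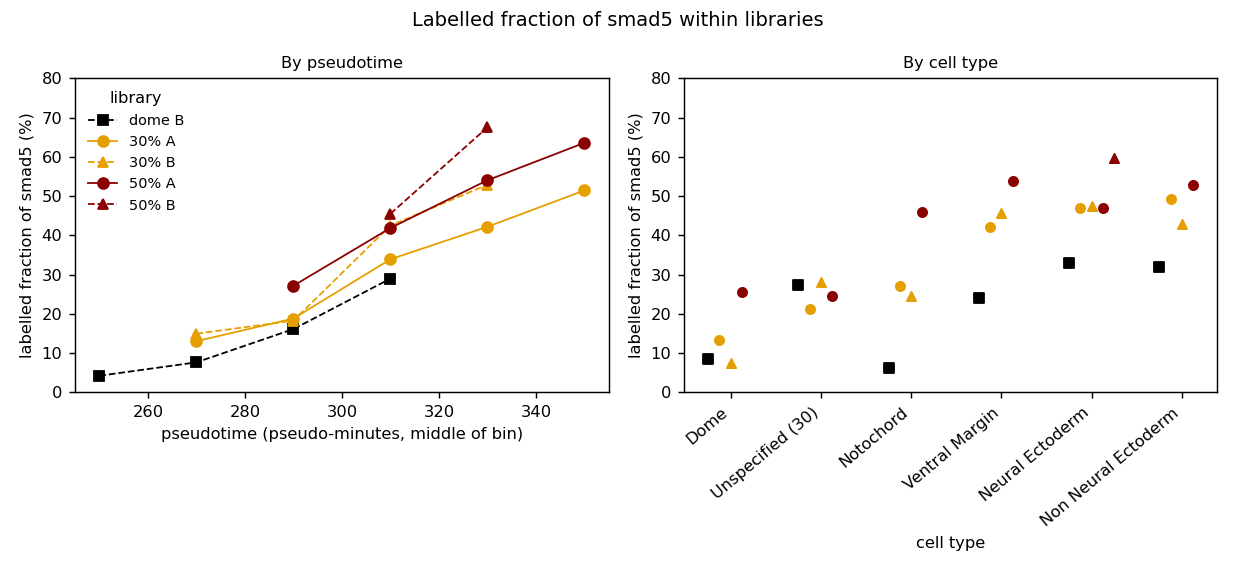
Labelled fraction of smad5 (y axis, percent) in bins of 20 pseudo-minutes of the deposited pseudotime (left) and in 6 cell types (right), in each library with 20 or more cells and 30 or more UMIs of smad5; colour is stage, shape is replicate. Within each library the fraction is higher in each later bin, and at dome it goes from 4.25% to 29.0%. In the paper, pseudotime was closely tied to the zygotic share of all mRNA in a cell. Notochord lies below Ventral Margin and both ectodermal types in every library where it is plotted.

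Ordered by the deposited pseudotime, a score in pseudo-minutes computed by the authors from the transcriptomes, smad5 was labelled at 4.25% in dome cells between 240 and 260 and at 7.67%, 16.1% and 29.0% in the next 3 bins. In 30% epiboly replicate A the bins from 260 to 360 had 13.1%, 18.8%, 33.9%, 42.2% and 51.5%. In 50% epiboly replicate A those from 280 to 360 had 27.2%, 41.9%, 54.1% and 63.6%. The fraction was higher in each later bin of these libraries, and in the bin between 300 and 320 it ran from 29.0% at dome to 45.5% in 50% epiboly replicate B. The paper reports that pseudotime was closely tied to the zygotic share of all mRNA in a cell, so a rise was partly built in. The labelled fraction of all genes was not computed per bin, so the rise cannot be read as particular to smad5. The total level of smad5 at dome went from 579 CPM in the first bin to 193 CPM in the bin between 320 and 340, and that of bambia from 89.7 to 379 CPM.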

How the data were processed

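Deposited UMI counts per gene and cell were whole numbers for 20920 genes, with 4 injected RNAs (0.534% of UMIs) left out of totals. The deposited labelled fraction is the estimate the authors made with GRAND-SLAM, and the deposited pseudotime score and cell types come from their URD analysis. The submitters' notes name GRCz11 and Bowtie2. Of 8226 cells, 8211 had 500 or more genes, and no doublets were removed.

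UMIs were summed per library, or per type within a library, and tested with edgeR 4.0.16 (TMM, filterByExpr), with DESeq2 1.42.0 as an alternative. Components were tested with limma 3.58.1 in R 4.3.3, on CPM without TMM scaling. Adjusted p-values are Benjamini-Hochberg over all genes tested, with a threshold of 0.05. The SE of an edgeR change was taken from its F statistic. The fits were tested on simulated data. p-values measure the spread between libraries. In comparisons with dome, which had 1 library, this spread came from the epiboly libraries alone. A difference of stage and a difference of that single library cannot be told apart there. If A is the first replicate of the methods, the letter also marks the handling of embryos in the epiboly stages. Blocked fits entered dome as replicate B, so their comparisons with dome depend on that label, which the methods and cell names do not share. Differences of replicates A and B in the 2 epiboly stages had r = 0.163 over 12150 genes.

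The genes and lists were chosen with earlier results of these data known. Named genes were the 9, listed pathway genes that passed a total-count stage comparison or reached 20 CPM, and for each of the 9 the 3 most alike genes outside the 9. No genome of the build of the authors was used, and no positions or sequences are given. The sources used here do not say how reads matching several genes were treated.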

Additional observations from a re-analysis of the deposited data

Results flagged for a closer look

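From 30% to 50% epiboly the level of smad5 moved one way in Non Neural Ectoderm and the other way in Ventral Margin in both replicates. On the log2(CPM + 10) scale the steps in Non Neural Ectoderm were 0.197 (A) and 0.107 (B), and those in Ventral Margin -0.273 (A) and -0.435 (B). The levels of 50% epiboly replicate B rest on 24 UMIs in Non Neural Ectoderm and 26 UMIs in Ventral Margin. These counts are too few to settle the direction of the replicate B steps. The pattern was also flagged among the steps of many pairs of gene and type. The difference between the types was not tested, and neither step was called by edgeR (adjusted p = 0.999 and 0.987). The cause was not tested.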

How the results depend on the processing

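Values below are genes called unless stated. Total counts, dome against 30% epiboly: 39, with DESeq2 178, without TMM 70, without a filter 294, with the replicate block 199, without 1 library 69 to 960 (764 without 50% epiboly replicate A, 960 without replicate B). Of the 9 genes, 1 was called there, with DESeq2 5, without a filter 4, with the block 4, without 1 library 1 to 8. Dome against 50% epiboly: 966, without TMM 2136, without 1 library 723 to 2567, the highest without 50% epiboly replicate B. 30% against 50% epiboly: 0, without a filter 3, with the block 2, without 1 library 0 to 122, and of the 9 genes 0 to 1.

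Labelled expression, dome against 50% epiboly: 364, without a minimum behind the fraction 0, with pairs of 1 or more UMIs 864 and with the block as well 1186, without 1 library 0 to 233; against 30% epiboly the block gave 106 and 490 where 0 were called, and 30% against 50% epiboly 0 to 1 without 1 library. Unlabelled expression, dome against 50% epiboly: 5, without a minimum 0, with pairs of 1 or more UMIs 182 and with the block as well 392, with the block 38, with a pseudocount of 0.1 or 10 3, without 1 library 0 to 1; the block with pairs of 1 or more UMIs gave 6 (30% epiboly against dome) and 2 (30% against 50%). Within types, without a filter 2 (Neural Ectoderm), 2 (Non Neural Ectoderm) and 1 (Ventral Margin) were called, and without 1 library 0 to 61, 3 to 27, 0 to 27 (Notochord) and 0 to 41 in that order with Ventral Margin last.

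By the fold rule, Non Neural over Neural Ectoderm gave 3 genes, 13 at 1.5-fold, 1 at 3-fold, 8 with 50 or more cells and 3 to 7 without 1 library; the reverse 7, 3 at 3-fold, 16 with 50 cells and 7 to 12. Notochord over Ventral Margin gave 14, 38 at 1.5-fold, 38 with 50 cells and 19 to 23. Notochord over Prechordal Plate gave 212, 522 at 1.5-fold, 63 at 3-fold, 110 with 10 cells, 562 with 50 and 562 to 983; the reverse 176, 340 at 1.5-fold, 97 at 3-fold, 447 with 50 cells and 447 to 648.

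Ranges are over fits without 1 library. Pairs of 1 or more UMIs with the block, and leaving out dome for 30% against 50% epiboly, were chosen after seeing the data. Directions that reversed were all of changes not called. They were, for 30% against 50% epiboly, bmp2b (-0.02) and chrd (-0.16) without TMM, chrd with the block (-0.09) and without 50% epiboly replicate A (-0.91; without 1 library up to 0.56), bmp4 without 50% epiboly replicate B (-0.34 to 0.13), szl without 30% epiboly replicate B (-0.73 to 0.09), and smad5 without 30% epiboly replicate A (0.15) or 50% epiboly replicate B (0.13; lowest -0.28); smad5 at 30% epiboly against dome without 30% epiboly replicate B (-0.39 to 0.02); unlabelled admp with a pseudocount of 10 (0.03), pairs of 1 or more UMIs (1.16, with the block 0.52) or without 50% epiboly replicate B (-1.81 to 1.22); unlabelled bambia with the block (-0.25) or without 50% epiboly replicate A (-0.40 to 1.58); the labelled fraction of bmp7a from 30% to 50% epiboly with 5 or more UMIs (-1.02); and that of chrd in Prechordal Plate with 1 or more UMIs (7.67). The causes were not tested. Depth limits what szl, bmp4 and 50% epiboly replicate B can show.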
